A study of Mus musculus with 6 samples.

Results

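The neuronal nicotinic acetylcholine receptor subunits examined here are the 9 genes Chrna2, Chrna3, Chrna4, Chrna5, Chrna6, Chrna7, Chrnb2, Chrnb3 and Chrnb4, taken by symbol from a table of 24054 genes. All 9 were found in the table, and all 9 were among the 14568 genes that passed the filter of a mean above 1 CPM in at least 1 group (CPM, counts scaled to a common library size). Polyadenylated RNA was sequenced from the substantia nigra (SN) of 3 MitoParks and 3 littermate controls of 16 to 17 weeks of age. The labels give the genotype of the littermate controls as C57BL/6. By the study's methods, MitoParks (Dat+/Cre, TFAM LoxP/LoxP) carry Cre at 1 copy of the dopamine transporter gene and loxP sites in both copies of Tfam, the gene of mitochondrial transcription factor A. The littermate controls (Dat+/+, TFAM+/LoxP) carry no Cre and loxP sites in 1 Tfam copy, so both groups share a floxed allele. None of the mice was treated. Cre is made only where the dopamine transporter gene is active, whereas the RNA came from the whole dissected tissue, and the sex of each mouse is not given in the labels. The labels do not say how the 3 mice of a group relate to each other, such as by litter. The p-values thus measure only the spread between these mice, part of which may be technical.

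Nicotinic receptors are cation channels made of 5 subunits around a pore that opens when acetylcholine or nicotine binds. Alpha subunits carry the main part of the binding site, and beta subunits complete it or hold the pentamer together. Chrna4 and Chrnb2 encode the most widespread pair of the brain, Chrna7 encodes a subunit that can form a channel by itself, Chrna6 and Chrnb3 are strongly expressed in dopaminergic (DAergic) neurons of the midbrain, where they join receptors on DAergic terminals, and Chrna3, Chrna5 and Chrnb4 lie side by side in the genome and are abundant in the medial habenula and in autonomic ganglia. Chrna2 is known from few brain regions, among them the interpeduncular nucleus.

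The libraries held between 8140777 and 10528602 expected counts each. Tfam, the targeted gene, was at 40.3, 44.4 and 45.5 CPM across littermate controls 1, 2 and 3 and at 32.7, 33.1 and 33.2 CPM across MitoParks 1, 2 and 3, so each MitoPark was below each littermate control. A pair of libraries stood apart from the rest of their groups. Littermate control 3 had a summed level of 1482 CPM over 10 DAergic neuron genes, where the other littermate controls had 454 and 543 CPM and the MitoParks had between 306 and 556 CPM. MitoPark 3 had a summed level of 34.6 CPM over Tph2, Slc6a4 and Fev, genes that mark serotonin neurons, where the other 5 mice were between 0.445 and 0.977 CPM. All 10 DAergic genes passed the filter, Pitx3 with no counts in MitoPark 1. The log2 fold change was negative for all 10, with a median of -0.77, and for 51.4% of all genes tested. These values include littermate control 3 with its high summed level. Of the 10, Slc6a3 and Foxa1 were lower in MitoParks past the cutoffs used here, which 0.199% of all genes tested passed as lower. Slc6a3 is the dopamine transporter gene, and 1 of its copies carries Cre in MitoParks. For Foxa1 the groups overlapped (unadjusted p = 0.0488, edgeR's quasi-likelihood test). In bulk RNA, fewer cells of a type and less RNA per cell cannot be told apart.

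The 2 groups were compared over all 14568 genes with the quasi-likelihood test of edgeR. A gene was called at an unadjusted p below 0.05 together with a fold change above 1.5, the cutoffs that the study's methods give for edgeR. Another section of those methods names an adjusted p below 0.05 as the cutoff. Of the 9 subunits, 2 were called, Chrna3 as lower and Chrna2 as higher in MitoParks, against 0.577% of all genes tested. Chrna2 passed the filter on mean CPM only through MitoPark 3. By direction, 0.199% of all genes were called as lower and 0.378% as higher. The other 7 did not pass. No gene of the table had a Benjamini-Hochberg adjusted p below 0.05 in this test, and the adjusted p of each of the 9 subunits was 0.999. DESeq2 and limma-voom also gave 0 genes at that adjusted threshold, and edgeR's exact test gave 1. Unadjusted p-values below 0.05 were reached by 161 genes, or 1.11% of those tested. The log2 fold change was negative for 7 of the 9 subunits, with a median of -0.35, and for 51.4% of all genes tested, whose median was -0.0047. When single mice were left out, the count of called subunits ranged from 1 to 4. It was 4 without littermate control 1 and also without littermate control 2, and it was 1 without MitoPark 3 and also without MitoPark 3 and littermate control 3 together.

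**Figure D1:**
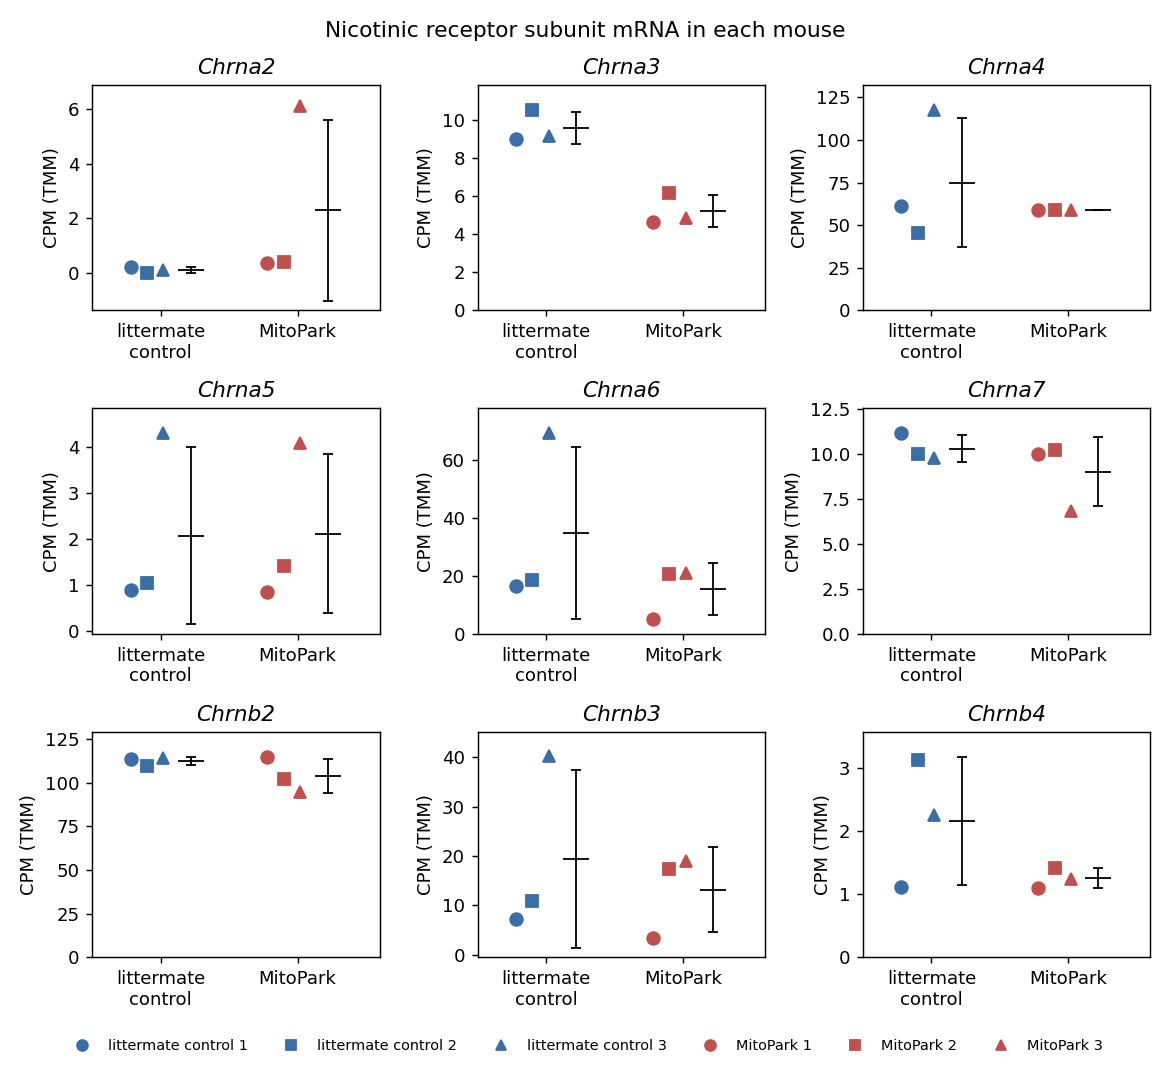
Level of each subunit mRNA (CPM after TMM normalization, linear axis) in the 3 littermate controls (blue) and 3 MitoParks (red), 1 point per mouse, with the mean and SD of each group beside them. Chrna3 separates the groups, littermate control 3 is the highest point for Chrna4, Chrna5, Chrna6 and Chrnb3, and MitoPark 3 alone is high for Chrna2.

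Chrna3, which encodes the alpha3 subunit, had the lowest p of the 9 subunits. It was at 9.02, 10.5 and 9.19 CPM across littermate controls 1, 2 and 3 and at 4.63, 6.17 and 4.88 CPM across MitoParks 1, 2 and 3. The highest MitoPark was thus well below the lowest littermate control, and the groups did not overlap, which held for 4.71% of all genes tested in either direction and for 2.28% with MitoParks lower. The mean was 9.58 ± 0.835 CPM across littermate controls (SD, n = 3) and 5.22 ± 0.825 CPM across MitoParks (SD, n = 3), from between 38 and 111 counts per mouse. The fitted log2 fold change was -0.87 with a 95% interval from -1.32 to -0.43, which corresponds to 0.547 times the control level (unadjusted p = 0.00157, edgeR's quasi-likelihood test). An exact two-sided permutation test gave p = 0.1, the smallest value that 3 mice against 3 allow. Among all genes tested, Chrna3 stood in place 2 by p. It was called under each of the 18 alternatives run, with log2 fold changes between -1.002 and -0.78, which included the fits without littermate control 3 and without MitoPark 3.

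Chrna3 shares its locus with Chrnb4, which lies upstream on the same strand, and with Chrna5 on the opposite strand. Since these 3 genes are neighbours and only Chrna3 was called, their promoters are shown, each 250 bases before and 50 bases after the start in RefSeq (GRCm38.p6), 5′ to 3′ on the strand of the gene. Capitals mark GGGCGG, the GC box bound by Sp1, or its reverse complement CCGCCC, and CAGCTG, a palindromic form of the E-box. Other forms of the E-box were not searched. The stretches are chr9:55026513-55026812 on the minus strand for Chrna3, chr9:55048495-55048794 on the minus strand for Chrnb4 and chr9:54981238-54981537 on the plus strand for the second of the 2 listed starts of Chrna5.
Chrna3: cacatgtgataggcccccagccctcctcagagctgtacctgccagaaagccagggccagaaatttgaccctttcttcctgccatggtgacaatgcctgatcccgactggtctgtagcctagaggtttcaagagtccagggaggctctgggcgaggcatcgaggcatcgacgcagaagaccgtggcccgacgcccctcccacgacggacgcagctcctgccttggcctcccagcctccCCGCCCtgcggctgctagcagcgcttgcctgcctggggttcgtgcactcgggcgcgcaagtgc
Chrnb4: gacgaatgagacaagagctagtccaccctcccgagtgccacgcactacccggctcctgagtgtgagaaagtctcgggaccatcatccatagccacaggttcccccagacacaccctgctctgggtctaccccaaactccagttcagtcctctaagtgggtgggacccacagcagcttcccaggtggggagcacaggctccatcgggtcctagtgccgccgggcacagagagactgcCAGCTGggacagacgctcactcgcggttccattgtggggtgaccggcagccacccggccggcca
Chrna5: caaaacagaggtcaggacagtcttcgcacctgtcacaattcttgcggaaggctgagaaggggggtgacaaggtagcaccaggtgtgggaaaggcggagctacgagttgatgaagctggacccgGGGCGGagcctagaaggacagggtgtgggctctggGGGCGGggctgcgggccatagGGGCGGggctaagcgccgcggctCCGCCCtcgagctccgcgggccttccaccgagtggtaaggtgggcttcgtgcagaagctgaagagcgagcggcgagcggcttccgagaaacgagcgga
The Chrna3 promoter held 1 GC box and no CAGCTG, the Chrnb4 promoter held 1 CAGCTG and no GC box, and the Chrna5 promoter shown held 4 GC boxes. The other listed Chrna5 promoter, which is not shown, held no GC box and no CAGCTG. Of all 32851 promoters in the same collection, 35.7% held a GC box and 16.3% held this E-box on either strand. Promoters were found for 6 of the 9 subunits, and 5 of their 7 listed promoters held a GC box and 1 held this E-box. These matches describe the letters of the window and nothing else.

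Chrnb4, the beta4 subunit that pairs with alpha3, was low in this tissue. It was at 1.11, 3.13 and 2.25 CPM across littermate controls 1, 2 and 3 and at 1.097, 1.42 and 1.25 CPM across MitoParks 1, 2 and 3. Littermate control 1 lay at the level of the MitoParks, so the groups overlapped, although littermate controls 2 and 3 were above all 3 MitoParks. Its log2 fold change of -0.79 had an interval from -1.73 to 0.15 (unadjusted p = 0.0913, edgeR's quasi-likelihood test) and did not pass the cutoffs. Without littermate control 1 it was -1.08 and was called (unadjusted p = 0.0185), and without littermate control 2 it was -0.43. Between 9 and 33 counts per mouse lie behind these values, and in 4 of the 6 mice the expected count of Chrnb4 was not a whole number, as RSEM gives where it divides reads between genes. Chrnb4 was the only one of the 9 subunits with such values.

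Chrna5, an accessory subunit that joins receptors formed by the other subunits, was high in a single mouse of each group. It was at 0.891, 1.04 and 4.30 CPM across littermate controls 1, 2 and 3 and at 0.853, 1.42 and 4.08 CPM across MitoParks 1, 2 and 3. Mouse 3 of each group was therefore the high one, at 4.44 times the mean of the other littermate controls and at 3.60 times that of the other MitoParks. Its log2 fold change of 0.0159 had a wide interval, from -1.56 to 1.59 (unadjusted p = 0.982, edgeR's quasi-likelihood test). It was -0.86 without MitoPark 3 and 1.12 without littermate control 3, and neither passed the cutoffs. The myelin gene Mbp, made by oligodendrocytes, was also high in these libraries, at 8775 CPM in littermate control 3 against a mean of 3921 CPM in the other littermate controls and at 7703 CPM in MitoPark 3 against 5264 CPM in the other MitoParks. Its part in the Chrna5 values was not tested. In RefSeq the Chrna3 and Chrna5 genes overlap at their 3′ ends, whereas in GENCODE M21 they share no exonic base. The libraries kept strand, but the strand setting of the counting is not given in the sources used here, so it is uncertain to which gene reads in the overlap were given.

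The difference between neighbours was examined in each mouse as the log2 level of Chrna3 minus that of its neighbour. Chrna3 minus Chrnb4 changed by -0.23 from littermate controls to MitoParks, with overlapping groups (exact permutation test, p = 0.8, adjusted p = 0.9 over 4 pairs of subunits). Chrna3 minus Chrna5 changed by -0.96, again with overlap (exact permutation test, p = 0.5, adjusted p = 0.9). A difference in response between Chrna3 and its neighbours was thus not shown.

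Since Chrna3 and Chrnb4 are abundant in the medial habenula, 5 genes listed as markers of that nucleus were read in the same libraries. Their summed level ranged from 52.7 to 86.0 CPM across littermate controls and from 49.3 to 59.7 CPM across MitoParks, and none of the 5 was without counts. Nwd2 was the only one called, at 32.4, 45.5 and 39.6 CPM across littermate controls and 25.6, 28.5 and 22.1 CPM across MitoParks (log2 fold change -0.62, unadjusted p = 0.00295, edgeR's quasi-likelihood test). Gpr151, a receptor gene largely confined to habenular neurons, had 4, 44 and 3 counts across littermate controls 1, 2 and 3 and 5, 7 and 3 across MitoParks 1, 2 and 3. Pou4f1, a transcription factor gene of habenular neurons, had 1, 41 and 20 counts and then 2, 12 and 20. For Tac2, a neuropeptide gene, the counts were 149, 277 and 137 in the controls and 251, 129 and 117 in the MitoParks, and for Irx2 they were 28, 64 and 94 in the controls and 22, 58 and 113 in the MitoParks. In littermate control 1, Nwd2 had 291 counts and Tac2 149, beside 4 of Gpr151 and 1 of Pou4f1. The summed level of the 5 genes thus cannot be read as habenular RNA alone. Littermate control 2 was the highest of the 6 mice for Gpr151, Pou4f1 and Nwd2, as it was for Chrna3 and Chrnb4. Littermate controls 1 and 3 were above all 3 MitoParks for Nwd2 and for Chrna3, and not for the other 4 marker genes. The part of habenular RNA in the Chrna3 difference was not tested. Chrna3 without littermate control 2 had a log2 fold change of -0.80 (unadjusted p = 0.00858, edgeR's quasi-likelihood test).

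**Figure D2:**
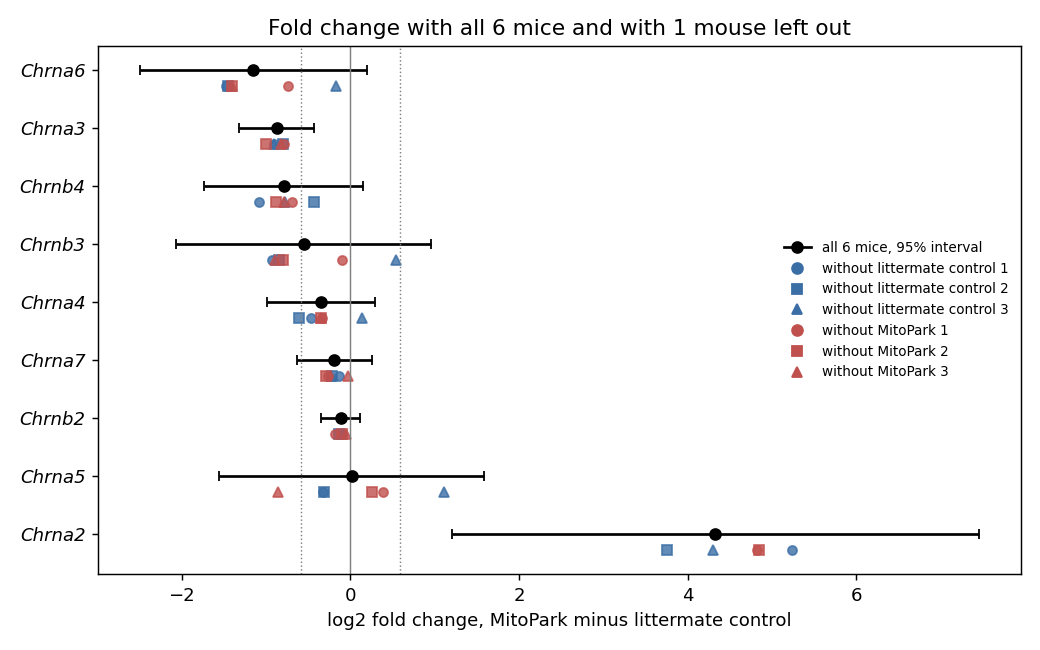
Log2 fold change of each subunit, MitoPark minus littermate control, from edgeR's quasi-likelihood fit. Black points with bars are the values with all 6 mice and their 95% intervals, coloured points below them are the values with 1 mouse left out, and dotted lines mark a fold change of 1.5. Chrna3 stays between -1.002 and -0.78 in every such fit, whereas Chrna6 moves from -1.15 to -0.17 without littermate control 3.

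The DAergic subunits Chrna6 and Chrnb3 varied more between mice of a group than between groups. Chrna6 was at 16.6, 18.6 and 69.2 CPM across littermate controls 1, 2 and 3 and at 5.24, 20.7 and 20.9 CPM across MitoParks 1, 2 and 3. Littermate control 3 was 3.93 times the mean of the other littermate controls, and MitoPark 1 was 0.252 times the mean of the other MitoParks. The remaining 4 mice lay between 16.6 and 20.9 CPM, with MitoParks 2 and 3 slightly above littermate controls 1 and 2. The means were 34.8 ± 29.8 CPM for littermate controls and 15.6 ± 8.98 CPM for MitoParks (SD, n = 3). Between them, the fitted log2 fold change was -1.15 with an interval from -2.49 to 0.19 (unadjusted p = 0.0854, edgeR's quasi-likelihood test). Without littermate control 3 it was -0.17 (unadjusted p = 0.69), and without MitoPark 1 it was -0.74 (unadjusted p = 0.233). Without littermate control 1 it was -1.48 and without littermate control 2 it was -1.45, and both values passed the cutoffs.

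Chrnb3, which lies beside Chrna6 in the genome on the opposite strand, had the same outlying mice. It was at 7.24, 10.9 and 40.2 CPM across littermate controls 1, 2 and 3 and at 3.29, 17.4 and 18.9 CPM across MitoParks 1, 2 and 3. Here too, MitoParks 2 and 3 were both above littermate controls 1 and 2. The means were 19.4 ± 18.05 and 13.2 ± 8.62 CPM (SD, n = 3). The log2 fold change was -0.55 with an interval from -2.06 to 0.96 (unadjusted p = 0.43, edgeR's quasi-likelihood test), and it was 0.54 without littermate control 3.

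The profile of Chrna6 over the 6 mice, on the scale of log2(CPM + 0.1) and centred on its own mean, was compared with that of each other gene tested by their root mean square distance. The nearest 3 genes were AI661453 at a distance of 0.337, Chrnb3 at 0.350 and En1, a transcription factor of DAergic neurons, at 0.352. En1 was at 3.56, 3.23 and 16.5 CPM across littermate controls and at 1.22, 6.07 and 8.05 CPM across MitoParks, again highest in littermate control 3 and lowest in MitoPark 1. Although the profiles were alike, the ratio of Chrna6 to Chrnb3 varied between mice. In log2 units, Chrna6 exceeded Chrnb3 by 1.19, 0.76 and 0.78 across littermate controls 1, 2 and 3 and by 0.66, 0.25 and 0.14 across MitoParks 1, 2 and 3. All 3 MitoParks were below all 3 littermate controls, with a change of -0.56 (exact permutation test, p = 0.1, the smallest possible, and adjusted p = 0.4 over 4 pairs). Leaving out single mice gave changes between -0.72 and -0.42, so the sign did not rest on littermate control 3. With that adjusted p, a difference in ratio between the groups was not shown.

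To set the subunits against genes expressed in DAergic neurons, the mean log2 level of Th, Ddc and Slc18a2, which make and store dopamine, was subtracted in each library. Chrna6 lay at -1.88 relative to that mean in the controls and at -2.44 in the MitoParks, a change of -0.56 with overlapping groups (exact permutation test, p = 0.6). MitoPark 1 was the lowest, with Chrna6 at -3.35 relative to the DAergic mean, and without that mouse the change was -0.10. For Chrnb3 the change was 0.0026 (exact permutation test, p = 1), and the values for Chrna4, Chrna5 and Chrna3 were 0.28, 0.60 and -0.36 (exact permutation tests, p = 0.4, p = 0.4 and p = 0.6). None of the 5 groups of values was free of overlap, and the lowest adjusted p over the 5 subunits was 0.75. With Th alone as the reference, without Ddc and Slc18a2, the change was -0.56 for Chrna6 and -0.00051 for Chrnb3. It was 0.28 for Chrna4, 0.60 for Chrna5 and -0.36 for Chrna3.

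**Figure D3:**
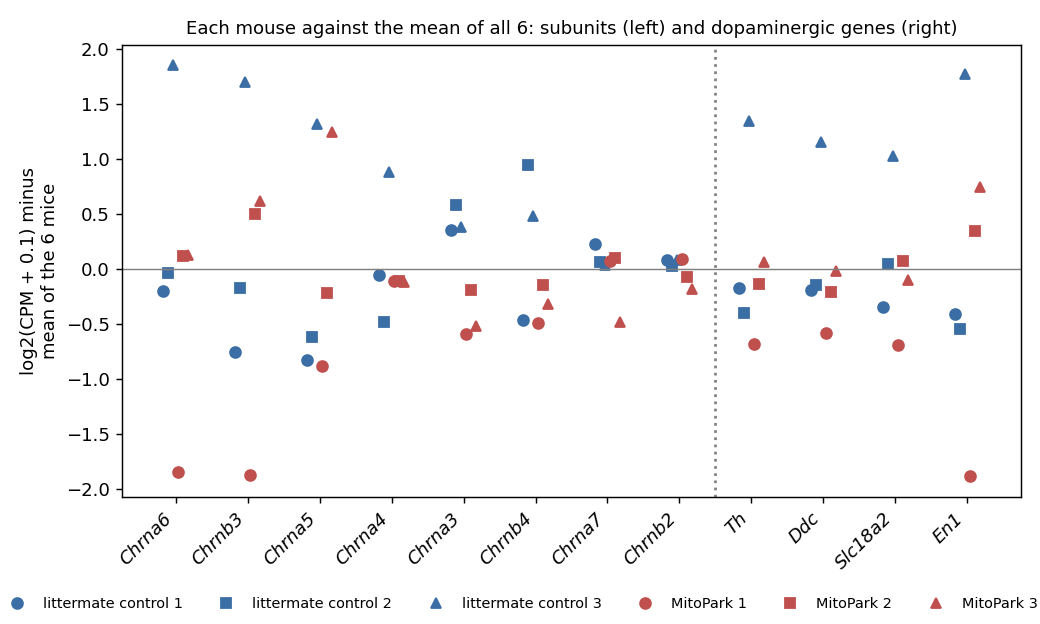
Level of 8 subunits (left of the dotted line) and 4 genes of DAergic neurons (right) in each mouse, as log2(CPM + 0.1) minus the mean of the 6 mice. Littermate control 3 is the top point for Chrna6, Chrnb3, Chrna5, Chrna4, Th, Ddc, Slc18a2 and En1 and not for Chrna3, where all 3 littermate controls are above all 3 MitoParks.

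Chrna4 and Chrnb2, the widespread pair, gave most of the subunit mRNA. Chrna4 was at 61.5, 45.7 and 117.5 CPM across littermate controls 1, 2 and 3 and at 59.0, 59.0 and 58.6 CPM across MitoParks 1, 2 and 3. The MitoParks were almost identical and lay between littermate controls 1 and 2, while littermate control 3 was 2.19 times the mean of the other littermate controls. Means of 74.9 ± 37.7 and 58.9 ± 0.233 CPM resulted (SD, n = 3). The log2 fold change of -0.35 had an interval from -0.99 to 0.29 (unadjusted p = 0.254, edgeR's quasi-likelihood test). Without littermate control 3 it was 0.14, and without littermate control 2 it was -0.60 and passed the cutoffs (unadjusted p = 0.0342).

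Chrnb2 hardly varied, at 113.6, 109.6 and 114.0 CPM across littermate controls 1, 2 and 3 and 114.5, 102.1 and 94.9 CPM across MitoParks 1, 2 and 3. Its log2 fold change of -0.11 lay in an interval from -0.35 to 0.12 (unadjusted p = 0.3, edgeR's quasi-likelihood test). That interval leaves no room for a change of 1.5-fold in either direction. The difference of Chrna4 and Chrnb2 within a mouse changed by -0.11 in log2 units (exact permutation test, p = 0.9, adjusted p = 0.9).

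Chrna7, whose product forms channels that let calcium through, was at 11.1, 9.97 and 9.77 CPM across littermate controls and at 9.995, 10.2 and 6.80 CPM across MitoParks. Only MitoPark 3 was below the range of the littermate controls. The log2 fold change was -0.19 with an interval from -0.64 to 0.25 (unadjusted p = 0.357, edgeR's quasi-likelihood test).

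Levels of different subunits were compared per length, as CPM divided by each gene's longest transcript in kilobases (GENCODE M21). In littermate controls the order was Chrnb2 at 17.6 ± 0.377, Chrna4 at 16.4 ± 8.27, Chrna6 at 12.0 ± 10.3, Chrnb3 at 4.24 ± 3.93, Chrna7 at 3.66 ± 0.262, Chrna3 at 2.20 ± 0.192, Chrna5 at 0.850 ± 0.787, Chrnb4 at 0.582 ± 0.272 and Chrna2 at 0.0301 ± 0.0314 CPM per kilobase (SD, n = 3). The ranges over the 3 mice of neighbours in this order overlapped down to Chrna7 and again for Chrna5 and Chrnb4, so those neighbours did not differ beyond their spread. In MitoParks, Chrnb2 at 16.2 ± 1.55 and Chrna4 at 12.9 ± 0.0511 CPM per kilobase (SD, n = 3) were clear of each other and of Chrna6 at 5.37 ± 3.09, and all neighbours from Chrna6 down overlapped. Chrna4 and Chrnb2 together made up 69.0%, 62.9% and 51.8% of the subunit mRNA per length across littermate controls 1, 2 and 3 and 79.6%, 62.9% and 59.8% across MitoParks 1, 2 and 3. Littermate control 3 thus had the smallest share of this pair and MitoPark 1 the largest, the same mice in which Chrna6 was highest and lowest.

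**Figure D4:**
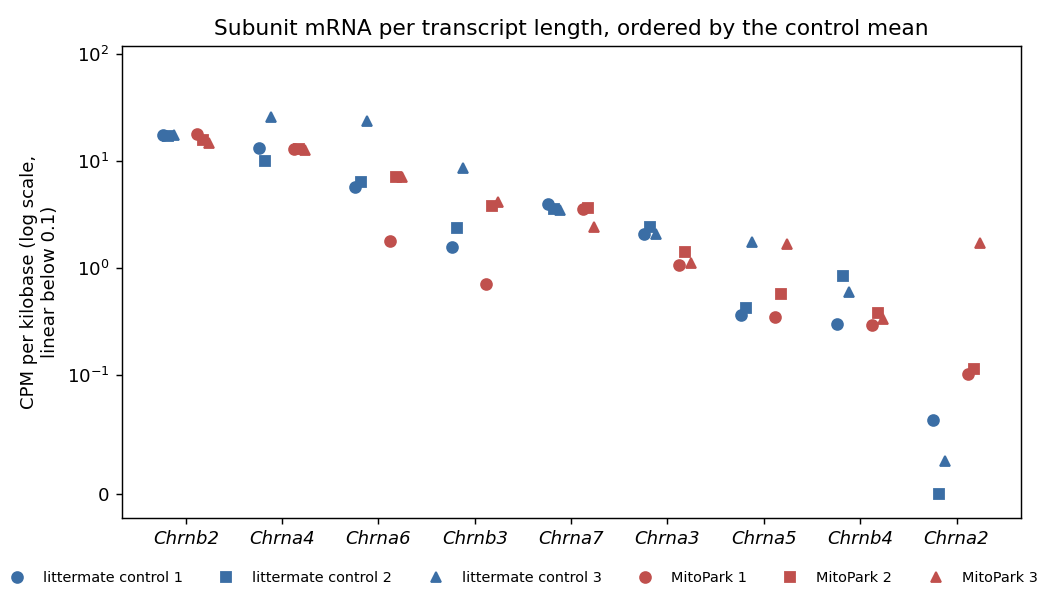
CPM per kilobase of the longest transcript for each subunit in each mouse, on an axis that is logarithmic above 0.1 and linear below, ordered by the mean of the littermate controls (blue left, MitoParks red right of each tick). Chrnb2 and Chrna4 lie near the top in all mice, Chrna6 and Chrnb3 spread over more than a factor of 10, and Chrna2 rises above 0.2 CPM per kilobase only in MitoPark 3.

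Chrna2, the alpha2 subunit, was called as higher in MitoParks, and a single mouse carried the call. Littermate controls 1, 2 and 3 had 2, 0 and 1 counts, and MitoParks 1, 2 and 3 had 3, 4 and 54. All littermate controls and MitoPark 1 were thus at or under 3 counts, the limit that a count of 0 allows. In CPM, MitoPark 3 was at 6.12, or 15.9 times the mean of the other MitoParks, and the groups did not overlap only because MitoParks 1 and 2 exceeded littermate control 1 by 1 and 2 counts. The pooled ratio of MitoParks to littermate controls was 22.5 with all mice, with an exact 95% interval from 7.33 to 111.9 that covers counting error only. Without MitoPark 3 the ratio was 3.83 with an interval from 0.875 to 23.0, and Chrna2 then did not pass the filter on low counts. The unadjusted p with all mice was 0.0118 (edgeR's quasi-likelihood test).

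MitoPark 3 was also the library with serotonin neuron genes. Tph2, which encodes the enzyme of serotonin synthesis in neurons, had 4, 3 and 8 counts across littermate controls 1, 2 and 3 and 2, 3 and 206 across MitoParks 1, 2 and 3. Slc6a4, the serotonin transporter gene, had 0, 2 and 1 counts across littermate controls and 1, 1 and 83 across MitoParks, and the transcription factor gene Fev had 0, 2 and 1 and then 3, 2 and 16. Tph2 was at 23.4 CPM in MitoPark 3, 85.4 times the mean of the other MitoParks. By the distance between profiles, the genes nearest to Chrna2 were Gbp4 at 1.03, Mmp12 at 1.07 and Tph2 at 1.08 on the log2 scale. These distances were larger than those of the genes nearest to Chrna6, at 0.337 to 0.352. Tph2, like Chrna2, passed the filter on mean CPM only through MitoPark 3, so its nearness rests on that mouse. The part of serotonin neuron or hindbrain RNA in the Chrna2 value was not tested.

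**Figure D5:**
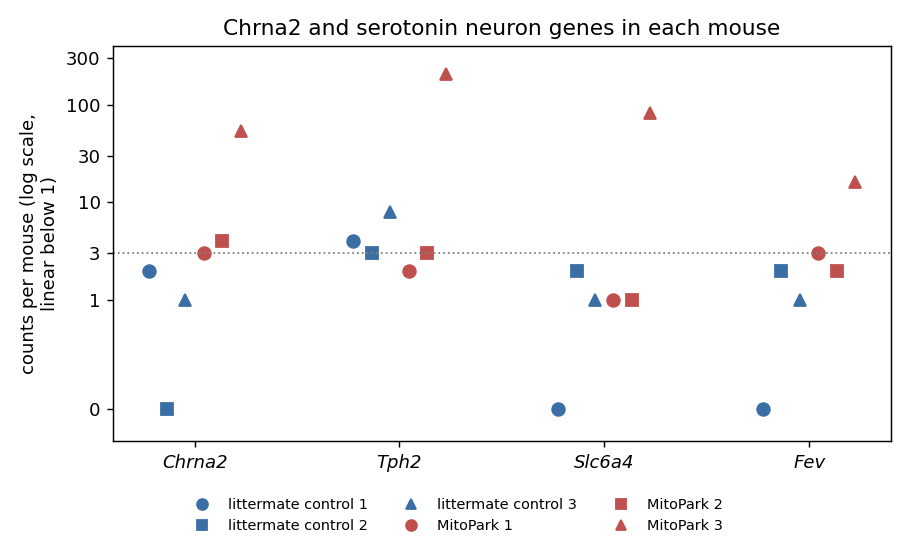
Counts of Chrna2 and of the serotonin neuron genes Tph2, Slc6a4 and Fev in each mouse, on an axis that is logarithmic above 1 and linear below, with a dotted line at 3 counts. MitoPark 3 had 54, 206, 83 and 16 counts, and no other mouse had more than 8 for any of the 4 genes.

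Around Chrna3, the 3 genes with the nearest profiles over the 6 mice were Tex15 at a distance of 0.140, Myh2 at 0.171 and Nwd2 at 0.178 on the log2 scale. Among the other subunits Chrnb4 was the nearest to Chrna3, at 0.382, and 841 other genes were closer. Chrna7 at 0.391 and Chrnb2 at 0.420 were nearly as near to Chrna3 as Chrnb4 was. Nearness of profiles over 6 mice reflects the group difference and the differences between mice together.

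Of the remaining nicotinic subunits, those of muscle and of inner ear hair cells, 2 of 7 passed the filter and neither was called. Chrna1, the alpha subunit of the neuromuscular junction, was at 2.25 ± 0.718 CPM across littermate controls and 2.94 ± 1.02 CPM across MitoParks (SD, n = 3), and Chrnb1 at 1.496 ± 0.395 and 1.905 ± 0.332 CPM (SD, n = 3). Chrna9 and Chrnd had no counts in any mouse, and Chrna10, Chrne and Chrng had at most 3 counts per mouse.

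Of 10 genes whose products fold nicotinic receptors, cluster them or bind to them, 8 were tested and none was called, with a median log2 fold change of -0.04. Lynx1, a membrane-anchored prototoxin that dampens receptor responses, was at 348 ± 24.0 CPM across littermate controls and 314 ± 29.6 CPM across MitoParks (SD, n = 3), with a log2 fold change of -0.15 (interval -0.41 to 0.11). The chaperone gene Ric3, which aids assembly of alpha7 receptors, was at 127 ± 0.604 and 122 ± 12.3 CPM (SD, n = 3), a log2 fold change of -0.05 with an interval from -0.29 to 0.18. Tmem35a, which encodes the chaperone NACHO and is listed under its older symbol, had a log2 fold change of -0.0048, with an interval from -0.41 to 0.40.

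For acetylcholine itself, 4 of 5 genes of its synthesis, packaging, uptake and breakdown were tested and none was called, with a median of -0.24. Ache, the gene of the enzyme that breaks down acetylcholine, was at 168 ± 9.44 CPM across littermate controls and 165 ± 28.4 CPM across MitoParks (SD, n = 3). Chat, the acetylcholine-making enzyme gene, had 7, 20 and 5 counts across littermate controls and 6, 4 and 5 across MitoParks (log2 fold change -0.91, interval -2.27 to 0.44).

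Genes of other cell types were read in the same way, and none of those listed next was called. The summed level of Gad1, Gad2, Slc32a1 and Pvalb, of inhibitory neurons, ranged from 727 to 1068 CPM in the controls and from 760 to 1129 CPM in the MitoParks. The 5 genes of striatal projection neurons summed to 92.0 to 139 and to 114 to 152 CPM, and the 4 genes of cortical and hippocampal neurons to 43.8 to 54.1 and to 35.5 to 73.8 CPM. The 3 astrocyte genes summed to 923 to 1198 and to 1106 to 1480 CPM, and the 3 microglial genes to 117 to 156 and to 140 to 151 CPM. All these ranges overlapped between the groups.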

How the data were processed

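Reads were mapped by the authors with Bowtie2 2.1.0 to UCSC transcripts and counted with RSEM 1.2.15, and the deposited values are expected counts per gene symbol without normalization. The build listed in the labels is human, and the mouse build is not given in the sources used here, so the only coordinates given are those of the RefSeq promoters (GRCm38.p6). The table had 0 columns of no mapped sample, and between 11.9% and 14.1% of values per mouse were not whole.

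Expected counts were rounded, kept where 1 group or both had a mean CPM above 1, and normalized by TMM, and edgeR 4.0.16 (R 4.3.3) fitted a quasi-likelihood model of the 2 groups over all genes, with Benjamini-Hochberg adjustment. The fit was tested on simulated data. CPM is relative to the TMM library size. Exact permutation tests were two-sided, on log2(CPM + 0.1). A floor of 3 counts was 0.285 to 0.366 CPM, and reads carry no molecular identifiers, so intervals on counts cover counting error only. Replicates of a group differed by more than sampling noise, the lowest ratio of chi-square to its degrees of freedom being 9.68.

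Members and lists were chosen with earlier results of these data known. The text names all 9 subunits, Tfam, genes of the fixed lists past the cutoffs or with the highest mean CPM as examples, and the 3 genes nearest in profile to Chrna3 and to the 2 subunits of widest range. Other genes of these lists that the text names, such as Gpr151, Pou4f1, Tac2, Irx2, Fev, Chat, Pitx3, Tmem35a and those at 0, were chosen after their values were seen. Alternatives were RLE, upper quartile and total count scaling, other filters, unrounded counts, edgeR's exact test and robust dispersion, DESeq2 1.42.0, limma-voom (limma 3.58.1), the replicate number as a block, other pseudocounts and markers, and each mouse left out. The fit without littermate control 3 and MitoPark 3 together was added after the data were seen. Some listed marker genes, and the sums that hold them, are not reported here. Python 3.11.15 with matplotlib 3.10.9 drew the figures.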

Additional observations from a re-analysis of the deposited data

How the results depend on the processing

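Chrna3, Chrna7 and Chrnb2 kept their direction and their side of the cutoffs under all 18 alternatives. Chrna2 did so under all 15 that left it in the test, but each of these held MitoPark 3. They therefore could not test its call without that mouse. Chrna2 was removed by the filter of a CPM above 1 in at least 3 mice, where 1 subunit was called, and by each fit without MitoPark 3. The number of subunits called ranged from 1 to 4 with each mouse left out in turn and was 1 without littermate control 3 and MitoPark 3 together. The number of genes called among all genes, 84, was 176 with no filter on low counts, ranged from 62 without MitoPark 3 to 219 without littermate control 3 with each mouse left out (133 without littermate control 1 and 217 without MitoPark 2), and was 131 without littermate control 3 and MitoPark 3.

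Signs changed with single mice. Chrna4 ranged from -0.60 to 0.14 with each mouse left out, at 0.14 without littermate control 3 and at 0.14 without littermate control 3 and MitoPark 3, and Chrnb3 ranged from -0.93 to 0.54, at 0.54 and 0.20 in those fits. Chrna5 was at -0.32 without littermate control 1, at -0.31 without littermate control 2 and at -0.86 without MitoPark 3, and Chrna5 ranged up to 1.12. Relative to DAergic genes, Chrnb3 was at -0.00051 with Th alone and ranged from -0.31 to 0.61 with each mouse left out. Chrna3 minus Chrnb4 ranged from -0.47 to 0.12 and Chrna4 minus Chrnb2 from -0.39 to 0.26 in the same fits. The cause was not tested.

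The mice share replicate numbers 1, 2 and 3. Across genes, the deviations of mice with 1 number correlated at 0.31, -0.07 and 0.24, and as 1 of the 3 was not above 0.1 the numbers were not taken to pair the mice. Littermate controls 1 and 3 correlated best with the MitoPark of their own number and littermate control 2 with MitoPark 1, a hint from the data and not from the design. With the replicate number as a block, 126 genes and 3 subunits were called, 323 genes in place of 161 had an unadjusted p below 0.05, and 1 gene had an adjusted p below 0.05, with Chrna6 added to the subunits at -1.04 (unadjusted p = 0.00446, edgeR's quasi-likelihood test). Without the filter on low counts Chrna6 was called as well, at -1.15. The differences within mice are the same with the block. Depth limits Chrna2, Chrnb4 and Chrna5, with 0 to 54 counts per mouse.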

Other observations

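The profiles of a few other subunits had neighbours outside the rule for named genes, chosen here after their values were seen. The 3 tested genes nearest to Chrnb3 over the 6 mice were En1 at a distance of 0.227, Foxa2 at 0.293 and Gvin1 at 0.331 on the log2 scale. En1 and Foxa2 are transcription factor genes of midbrain DAergic neurons. Foxa2 was at 0.891, 2.37 and 5.38 CPM across littermate controls 1, 2 and 3 and at 0.366, 2.63 and 3.74 CPM across MitoParks 1, 2 and 3. The nearest gene to Chrna5 was 2700070H01Rik at a distance of 0.308, followed by Pllp, a gene of myelin, at 0.320. Pllp was at 41.0, 42.9 and 118 CPM across littermate controls and at 47.1, 52.8 and 112 CPM across MitoParks. It was high in mouse 3 of each group, as Chrna5 was. The nearest gene to Chrnb4 after Pla2g5 was Barhl2, a transcription factor gene, at 0.178, with 5.57, 10.3 and 9.97 CPM across littermate controls and 4.75, 6.57 and 5.90 CPM across MitoParks. Rapsn, the gene of the protein that clusters receptors at the neuromuscular junction, did not pass the filter and had 1, 1 and 2 counts across littermate controls and 2, 4 and 5 across MitoParks.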
